A study of Mus musculus with 4 samples.

Results

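Genes that drive cells from G2 through mitosis were compared in MC3T3-E1 cells, a WT mouse pre-osteoblastic line derived from skull, by RNA sequencing of 4 libraries. The 54 genes, of 41288 in the deposited table, were chosen by name for their known roles in G2 and mitosis and found by gene symbol. Earlier results of these data were known when they were chosen. All 54 had a mean of at least 30 counts over the 4 libraries, the minimum that 11769 genes met and that defines the genes assessed here. One library came from an untreated control, one from cells under mechanical tensile strain (2500 microstrain at 0.5 Hz for 1 h per day), one from cells kept in medium that PC-3 cells, which derive from human prostate cancer, had conditioned, and one from cells that received strain in that medium. Per the labels, the medium was replaced once the cells had reached confluence.

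There was 1 library per group, of 10007546 to 10997085 counts, so no difference below has a replicate check and no p-value was computed. A fold is the ratio of a gene's share of all counts in one library to its share in another, with a 95% interval in brackets that was derived from the exact Clopper-Pearson interval and covers counting error only. A gene was called where that fold was at least 1.5 either way. RPKM is the authors' count scaled to gene length and library total, and is the scale for levels. The table names its columns by single letters: the control and the library with both treatments could be told from those letters, L was read as loading, and T was taken by elimination as conditioned medium. If L and T stood for the opposite treatments, strain and conditioned medium would exchange places in the statements below, with exceptions. The comparison of both treatments with control would not change. Nor would the values of the difference between the strain ratios in conditioned and in ordinary medium. No library had medium conditioned by other cells, so an effect of PC-3 products and one of conditioned medium in general cannot be told apart.

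Of 10 osteoblast markers all had counts in every library, led by Spp1 (1223 to 3455 RPKM) and Col1a2 (1356 to 1600 RPKM), and their summed level was 3659 RPKM in the control, 5115 with strain, 5823 in conditioned medium and 5951 with both. Spp1 made up most of that difference, with 1223 RPKM in the control and 3412 with both treatments. Between the same libraries Runx2 went from 16.3 to 12.3 RPKM and Sp7 from 3.32 to 1.80 RPKM, while Col1a1 had 484 RPKM in each. The maturation markers Alpl, Bglap and Ibsp stayed at or below 0.974 RPKM in each library. Bglap2 had 0.769 RPKM in the control, 1.38 with strain, 1.19 in conditioned medium and 0.845 with both, on 4 to 7 counts. Of markers of other cell types, the 5 of adipocytes summed to at most 0.196 RPKM in a library, with Adipoq and Lep at 0 counts in all 4, and the 5 of macrophages to 0.575 to 0.904 RPKM, mostly Cd68, with Ptprc at 0. The 4 endothelial markers summed to 0.412 to 0.658 RPKM. The 4 skeletal muscle markers summed to 3.83 to 5.15 RPKM, all from Des (2.82 to 3.89 RPKM) and Acta1 (0.827 to 2.14 RPKM), with Myod1 and Myog at 0. The summed level of 4 chondrocyte markers went from 35.1 RPKM in the control to 30.8, 26.2 and 20.6 with strain, conditioned medium and both. Sox9 made up most of it, with 34.3 RPKM in the control and 19.7 with both. Col2a1 was instead higher with strain, 2.37 RPKM against 0.65 in the control, and had 0.575 in conditioned medium and 0.596 with both. Comp and Acan had at most 10 counts in a library. The part of these markers in the results below was not tested.

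Entry into mitosis is driven by the kinase CDK1 bound to cyclins A and B, and exit by the anaphase-promoting complex, which marks the cyclins and securin for destruction. Transcripts of many genes of G2 and mitosis, though not of all, build up in G2 and are scarce in resting cells. In bulk RNA, fewer dividing cells and less transcript per cell cannot be told apart.

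All 54 genes were highest in the strain library, which was the highest of the 4 for 24.6% of the genes assessed. In 53 of 54 both libraries without conditioned medium lay above both libraries with it, an arrangement found in 32.9% of the genes assessed, and Pttg1 (securin, which holds separase inactive until anaphase) was the exception. The 54 genes together held 37.99 of every 10000 counts in the control, 48.2 with strain, 24.7 in conditioned medium and 26.6 with both. Their summed share was thus 1.27-fold higher (1.253 to 1.285) with strain than in the control, 1.54-fold lower (1.51 to 1.56) in conditioned medium than in the control, and 1.81-fold lower (1.78 to 1.84) with both than with strain. With both treatments it was 1.08-fold higher (1.06 to 1.10) than in conditioned medium alone.

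**Figure D1:**
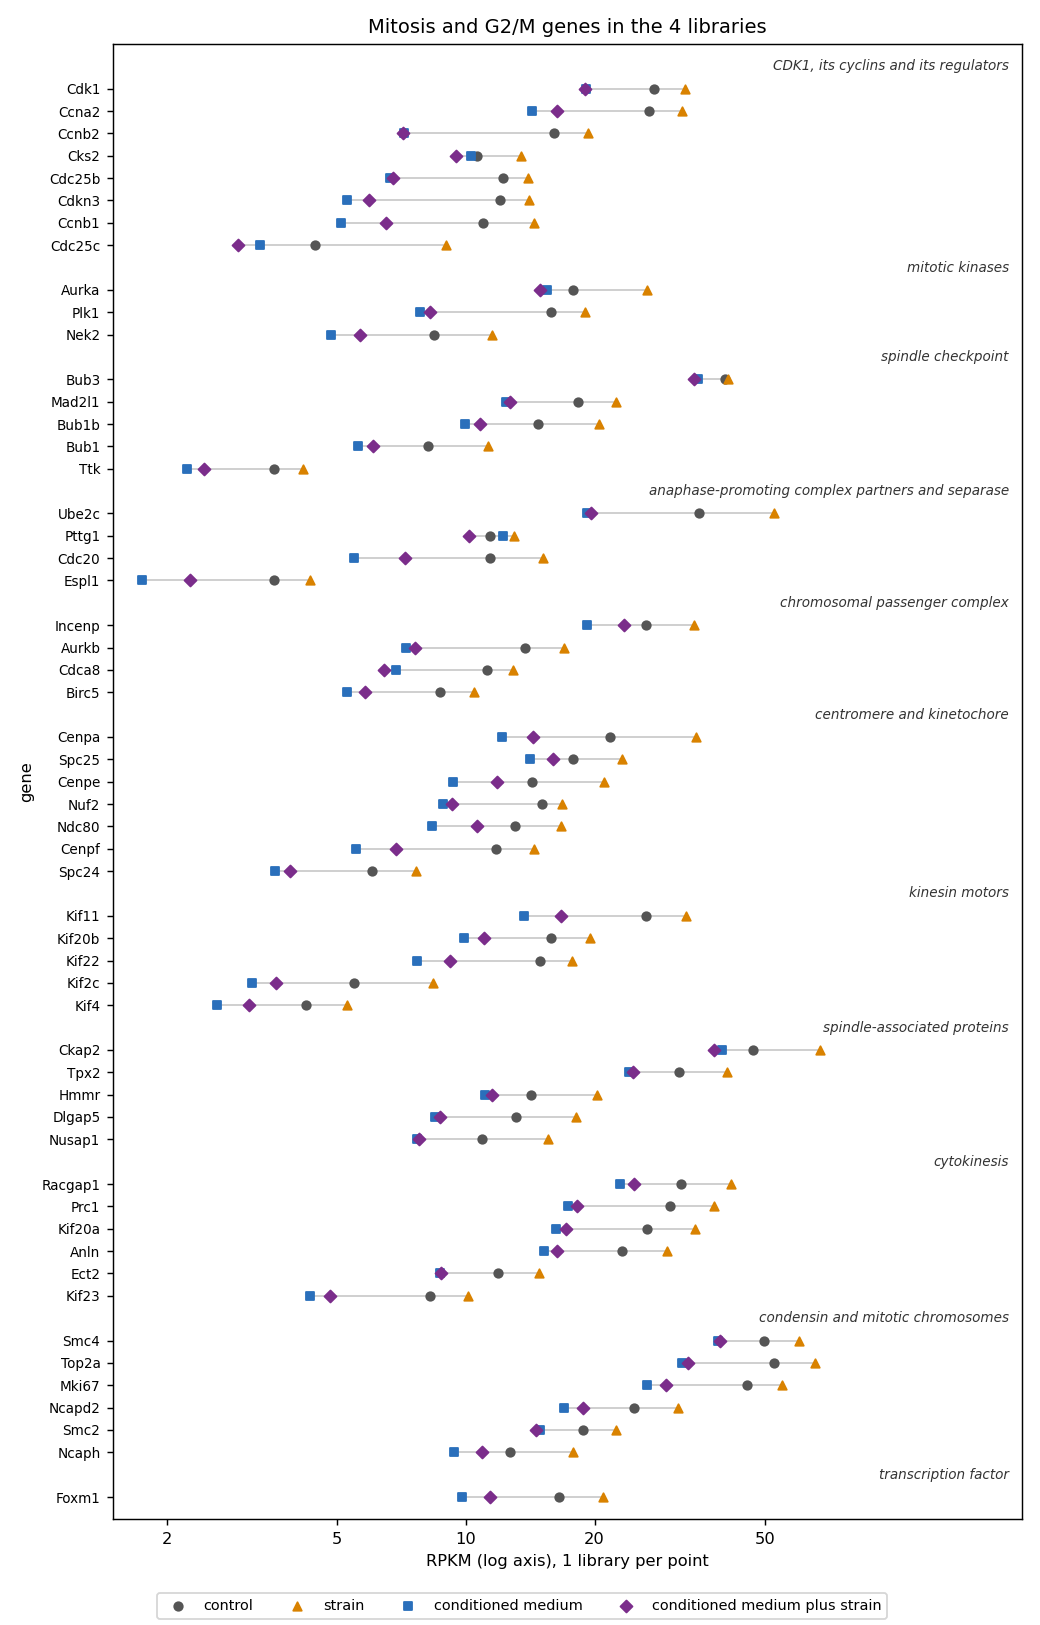
RPKM on a log axis for each of the 54 genes, grouped by role, with 1 point per library: circles for the control, triangles for strain, squares for conditioned medium and diamonds for both treatments. The triangle is rightmost in every row, and in every row but that of Pttg1 the square and the diamond lie left of the circle.

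Many promoters of this class of genes carry CCAAT boxes, bound by NF-Y, upstream of a cell cycle homology region (CHR), through which the MuvB-containing complexes act. Upstream sequence from RefSeq (GRCm38.p6) was matched for 44 of the 54 genes, with 47 listed starts; Ccna2, Cdc25c, Aurkb, Incenp, Kif20a, Tpx2, Smc4, Dlgap5, Foxm1 and Spc24 had no entry. The 120 bases before the start are shown, 5′ to 3′, for 5 genes called lower with both treatments than with strain and for Bub3, whose share varied least of all. Capitals mark matches to CCAAT or to a CHR (TTTGAA or TTCGAA), on either strand, so that ATTGG and TTCAAA are the reverse forms. The matches in these stretches do not overlap each other. The stretches are chr10:69352913-69353032 (minus strand) for Cdk1, chr2:164769809-164769928 (plus) for Ube2c, chr4:118437344-118437463 (minus) for Cdc20, chr9:70421555-70421674 (minus) for Ccnb2, chr11:99024190-99024309 (minus) for Top2a and chr7:131560250-131560369 (plus) for Bub3, which has 2 listed starts, of which the upstream one is used.
Cdk1: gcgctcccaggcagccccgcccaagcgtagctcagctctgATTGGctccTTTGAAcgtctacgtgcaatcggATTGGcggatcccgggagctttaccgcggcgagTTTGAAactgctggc
Ube2c: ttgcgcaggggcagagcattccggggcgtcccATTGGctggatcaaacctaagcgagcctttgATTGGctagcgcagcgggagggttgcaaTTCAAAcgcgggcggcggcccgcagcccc
Cdc20: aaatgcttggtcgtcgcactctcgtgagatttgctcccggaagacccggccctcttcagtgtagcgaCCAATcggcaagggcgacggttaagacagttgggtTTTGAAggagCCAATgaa
Ccnb2: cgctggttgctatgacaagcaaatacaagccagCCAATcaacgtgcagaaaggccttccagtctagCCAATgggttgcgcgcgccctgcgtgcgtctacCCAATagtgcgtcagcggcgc
Top2a: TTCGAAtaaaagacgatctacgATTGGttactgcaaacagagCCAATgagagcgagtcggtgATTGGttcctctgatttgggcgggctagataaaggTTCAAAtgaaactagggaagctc
Bub3: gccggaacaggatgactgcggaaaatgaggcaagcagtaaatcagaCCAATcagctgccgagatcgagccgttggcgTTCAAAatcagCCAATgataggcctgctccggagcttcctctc

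Within the 250 bases before the start, a CHR was found in 20 of the 47 promoters (42.6%), against 12.3% of the 11887 promoters of genes assessed and 17.1% of all 32851 promoters in the table. CCAAT was found in 37 of 47 (78.7%), against 35.8% and 33.8%. The nearest CHR began 15 bases before the start in Cdk1, 18 in Cdc20, 23 in Top2a and 29 in Ube2c, while the Ccnb2 stretch held 3 CCAAT boxes and no CHR, its nearest CHR beginning 167 bases before the start. The Bub3 stretch held 1 CHR and 2 CCAAT boxes, as did that of Cdc20. The median log2 ratio of conditioned medium to control was -0.78 over the 18 genes with a CHR in either listed start and -0.66 over the 26 without. With both treatments against strain those medians were -0.94 and -0.84, and the ranges overlapped widely, from -1.44 to -0.27 with a CHR and from -1.27 to -0.35 without. For both treatments against control the medians were -0.64 with a CHR and -0.51 without. They were 0.32 and 0.34 for strain against control, and 0.10 and 0.12 for both treatments against conditioned medium. Over the 34 genes with CCAAT and the 10 without, the medians were -0.71 and -0.63 for conditioned medium against control. For strain against control those of the CCAAT split were 0.319 and 0.325. A match is a description of the letters in the window and not evidence of binding.

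Strain against control addresses the effect of mechanical loading in ordinary medium. All 54 genes had higher values with strain, where 43.0% of the genes assessed did, with a median log2 ratio of 0.34 over the 54 and -0.03 over all. The differences were small. At 2-fold, 1 gene was higher, Cdc25c, against 0.255% of the genes assessed. In all, 3 of 54 were called higher, against 1.58% of the genes assessed, and 0 lower, against 1.44%. For 46 of 54 the counting interval lay above 1, against 9.78% of the genes assessed. With TMM scaling, Aurka, Ube2c and Cenpe joined Cdc25c, Cenpa and Kif2c to make 6, and 64.0% of all called genes lay upward in place of 52.4%.

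The effect of the cancer cells' medium without strain is addressed by conditioned medium against control. Here 53 of 54 genes had lower values, where 57.3% of the genes assessed did, and the median log2 ratio was -0.69 against -0.04 over all. Of the 54, 33 were called lower, against 3.5% of the genes assessed, and 0 higher, against 3.28%. At 2-fold, 7 were lower, against 0.586% of the genes assessed.

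Both treatments against strain addresses the question in the study's title, the action of the cancer cells' medium on strained cells. All 54 genes were lower, where 58.6% of the genes assessed were, with a median log2 ratio of -0.90 against -0.04 over all. Of these, 49 were called lower, against 3.85% of the genes assessed, and 0 higher, against 2.55%; 19 were at least 2-fold lower, against 0.756%. Bub3, Cks2, Incenp, Pttg1 and Spc25 were the 5 not called. This comparison and that of conditioned medium with control share no library: the 33 genes called lower there were all among the 49, which makes 67.3% of the latter. With 49 of the 54 called here, most of any 33 of them would lie among those 49. The overlap over all genes assessed was not computed. Across the 54 genes the log2 ratios of both comparisons had r = 0.70 and rho = 0.77, beside r = 0.61 and rho = 0.46 across the 11769 genes assessed; genes are not independent, and all points come from the same 4 libraries.

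**Figure D2:**
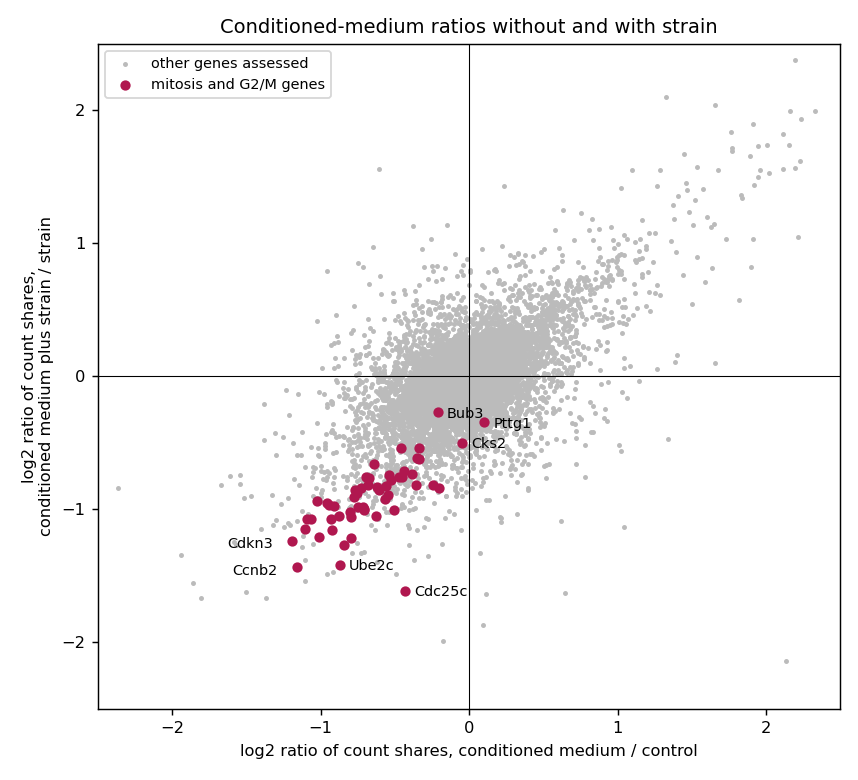
Log2 ratio of count shares in conditioned medium to control (x) and in conditioned medium plus strain to strain (y), with the 54 genes in red and other genes assessed in grey; 14 genes beyond 2.5 on either axis are not drawn. The red points lie below 0 on both axes except Pttg1, at 0.10 and -0.35.

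Both treatments against conditioned medium addresses the effect of strain in the cancer cells' medium. In that comparison 44 of 54 genes had higher values, where 39.9% of the genes assessed did, but the median log2 ratio was 0.11, against -0.03 over all, and 0 of 54 were called in either direction, against 0.612% higher and 0.952% lower among the genes assessed. The counting interval lay above 1 for 12 genes, against 3.46% of the genes assessed, and below 1 for 0, against 10.3%. Both treatments against control, a comparison the same under either reading of the column letters, gave lower values for all 54, where 63.7% of the genes assessed were lower, with a median of -0.56 against -0.07 over all. Of the 54, 25 were called lower, against 4.11% of the genes assessed, and 0 higher, against 2.97%, and at 2-fold 2 were lower (Ccnb2 and Cdkn3), against 0.824%. With TMM scaling 16 were called lower, and 56.4% of all called genes lay upward in place of 41.9%.

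Among CDK1, its cyclins and its regulators stood the gene with the widest ratio in 4 of the 5 comparisons: Cdc25c for strain against control and for both treatments against strain, Cdkn3 for conditioned medium and Ccnb2 for both treatments against control. Cdk1, the mitotic kinase, had 27.5 RPKM in the control, 32.6 with strain, 19.1 in conditioned medium and 19.0 with both. Its levels in the conditioned-medium libraries could not be told apart by counting error, and both were lower than in the control, in conditioned medium 1.44-fold lower (1.30 to 1.60). Ccna2 (cyclin A2), which acts in S phase and G2, had 26.8 RPKM in the control, 32.1 with strain, 14.3 in conditioned medium and 16.3 with both, and with both treatments was 1.962-fold lower (1.77 to 2.18) than with strain. Ccnb1 (cyclin B1), the main partner of CDK1 at mitotic entry, had 10.99 RPKM in the control, 14.4 with strain, 5.10 in conditioned medium and 6.51 with both. Its share in conditioned medium was 2.15-fold lower (1.74 to 2.68) than in the control, and both conditioned-medium libraries lay well below the other two. Ccnb2 (cyclin B2) had 16.1 RPKM in the control, 19.3 with strain, 7.18 in conditioned medium and 7.13 with both, which was 2.23-fold lower (1.79 to 2.80) in conditioned medium and 2.25-fold lower (1.80 to 2.83) with both, each against control.

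Cdc25b and Cdc25c encode phosphatases that remove inhibitory phosphates from CDK1, and their strain folds were unlike, a difference that was not tested. Cdc25b had 12.2 RPKM in the control, 13.98 with strain, 6.66 in conditioned medium and 6.77 with both, with a strain library 1.14-fold higher (1.01 to 1.30) than the control. Cdc25c had 4.45 RPKM in the control, 8.98 with strain, 3.31 in conditioned medium and 2.93 with both, so that the strain library stood apart from the other 3: it was 2.02-fold higher (1.62 to 2.52) than the control, the widest strain fold of the 54 genes, on 125, 246, 90 and 75 counts in the same order. With both treatments Cdc25c was 3.06-fold lower (2.35 to 4.02) than with strain but close to its level in conditioned medium. Cdkn3, a phosphatase that acts on CDKs, had 12.1 RPKM in the control, 14.04 with strain, 5.27 in conditioned medium and 5.95 with both and was 2.29-fold lower (1.63 to 3.25) in conditioned medium than in the control. Cks2, a small CDK-binding protein, had 10.6 RPKM in the control, 13.4 with strain, 10.3 in conditioned medium and 9.50 with both, and the control and both conditioned-medium libraries could not be told apart by counting error.

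Among mitotic kinases, Plk1 (polo-like kinase 1, which acts at mitotic entry, on centrosomes and in cytokinesis) had 15.8 RPKM in the control, 19.0 with strain, 7.84 in conditioned medium and 8.26 with both. Against control, conditioned medium was 2.02-fold lower (1.69 to 2.42) and both treatments 1.91-fold lower (1.60 to 2.30). Aurka (Aurora A, a centrosomal and spindle kinase) had 17.8 RPKM in the control, 26.6 with strain, 15.5 in conditioned medium and 14.9 with both. In contrast to Plk1, its fold in conditioned medium was small, 1.15-fold lower (0.992 to 1.33) than control, and the strain library was 1.495-fold higher (1.31 to 1.70). Nek2, a centrosomal kinase, had 8.45 RPKM in the control, 11.5 with strain, 4.84 in conditioned medium and 5.66 with both and was 2.03-fold lower (1.71 to 2.42) with both treatments than with strain.

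The spindle checkpoint delays anaphase until all kinetochores are attached. Bub3 (a checkpoint protein that also serves outside mitosis) had 40.4 RPKM in the control, 41.1 with strain, 34.9 in conditioned medium and 34.1 with both, the narrowest spread of the 54 genes, with a highest share 1.21 times the lowest. Mad2l1 (MAD2, which inhibits CDC20) had 18.3 RPKM in the control, 22.5 with strain, 12.4 in conditioned medium and 12.7 with both, and its share was 1.47-fold lower (1.26 to 1.72) in conditioned medium than in the control. The checkpoint kinases Bub1 and Ttk and the CDC20 inhibitor Bub1b (BUBR1) showed the same order of libraries as Mad2l1. Their shares were 1.70-fold to 1.90-fold lower with both treatments than with strain, and 4 of the 5 checkpoint genes were called there.

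Ube2c, the ubiquitin-conjugating enzyme that works with the anaphase-promoting complex, had 35.2 RPKM in the control, 52.4 with strain, 19.2 in conditioned medium and 19.6 with both. The strain library was 1.49-fold higher (1.30 to 1.71) than the control, and the library with both treatments 2.67-fold lower (2.25 to 3.17) than strain. Cdc20, the activator of that complex at anaphase, had 11.4 RPKM in the control, 15.2 with strain, 5.47 in conditioned medium and 7.23 with both. It was 2.09-fold lower (1.65 to 2.66) in conditioned medium than in the control and 1.32-fold higher (1.01 to 1.73) with both than in conditioned medium alone. Espl1 (separase, which cuts cohesin) had 3.56 RPKM in the control, 4.33 with strain, 1.75 in conditioned medium and 2.26 with both and was 2.03-fold lower (1.65 to 2.52) in conditioned medium than in the control. Pttg1 had another pattern. It had 11.4 RPKM in the control, 12.9 with strain, 12.2 in conditioned medium and 10.2 with both. The conditioned-medium library was 1.07-fold higher (0.889 to 1.30) than the control, an interval that holds 1, and the library with both was 1.27-fold lower (1.04 to 1.55) than strain.

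The chromosomal passenger complex corrects faulty kinetochore attachments and acts again at cytokinesis. Its kinase gene Aurkb had 13.7 RPKM in the control, 17.02 with strain, 7.24 in conditioned medium and 7.62 with both, and with both treatments was 2.23-fold lower (1.86 to 2.69) than with strain. Cdca8 (borealin) had 11.2 RPKM in the control, 12.9 with strain, 6.87 in conditioned medium and 6.45 with both, and there was 2.0-fold lower (1.58 to 2.55). Incenp, the scaffold of the complex, had 26.4 RPKM in the control, 34.2 with strain, 19.2 in conditioned medium and 23.5 with both. Its difference in that comparison was smaller, 1.46-fold lower (1.33 to 1.59), and its library with both treatments was 1.22-fold higher (1.10 to 1.36) than that in conditioned medium alone. Birc5 (survivin) lay between them, 1.79-fold lower (1.51 to 2.14) with both than with strain.

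Of the centromere and kinetochore genes, Cenpa (the histone H3 variant that marks centromeres) had 21.7 RPKM in the control, 34.5 with strain, 12.1 in conditioned medium and 14.3 with both. It was 1.59-fold higher (1.398 to 1.81) with strain than in the control, the highest fold after Cdc25c, and 2.41-fold lower (2.07 to 2.82) with both treatments than with strain. Cenpf had 11.8 RPKM in the control, 14.5 with strain, 5.53 in conditioned medium and 6.86 with both. It was 2.13-fold lower (1.94 to 2.33) in conditioned medium than in the control, on 1498, 1792, 682 and 794 counts over the 4 libraries in the same order, and 1.24-fold higher (1.12 to 1.38) with both than in conditioned medium. Among subunits of the NDC80 complex, which binds microtubules, Spc25 had 17.8 RPKM in the control, 23.1 with strain, 14.1 in conditioned medium and 15.97 with both. Its fold in conditioned medium was 1.26-fold lower (1.08 to 1.48) than control, while Nuf2 was 1.71-fold lower (1.45 to 2.01), Ndc80 1.56-fold lower (1.30 to 1.88) and Spc24 1.68-fold lower (1.21 to 2.35). The kinetochore motor gene Cenpe was 1.47-fold higher (1.37 to 1.59) with strain and 1.53-fold lower (1.401 to 1.68) in conditioned medium, each against control.

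All 5 genes grouped as kinesin motors were called lower in conditioned medium than in the control, with log2 ratios from -0.95 to -0.68. Kinesin genes placed in other role groups had -0.62 (Cenpe), -0.71 (Kif20a) and -0.93 (Kif23). In the related list of other mitotic genes below, Kif18b had -0.69 and Kif14 -0.65. Kif15 (-0.49) and Kif18a (-0.29) of that list were not called. Kif11 (Eg5, which pushes spindle poles apart) had 26.3 RPKM in the control, 32.7 with strain, 13.7 in conditioned medium and 16.7 with both. Its library with both treatments was 1.22-fold higher (1.11 to 1.36) than that in conditioned medium. Kif20b had 15.8 RPKM in the control, 19.5 with strain, 9.91 in conditioned medium and 11.1 with both. Kif2c (MCAK, a microtubule depolymerase) had 5.48 RPKM in the control, 8.37 with strain, 3.16 in conditioned medium and 3.61 with both, and was 1.53-fold higher (1.27 to 1.84) with strain than in the control. The chromosome-arm motors Kif22 and Kif4 were 1.93-fold and 1.69-fold lower with both treatments than with strain.

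Spindle-associated protein genes had another balance, with the highest median strain ratio of the role groups of more than 1 gene (log2 0.51) and the smallest median difference in conditioned medium (log2 -0.38, 1 of 5 called). Ckap2, which stabilises spindle microtubules, had 47.0 RPKM in the control, 67.3 with strain, 39.8 in conditioned medium and 38.1 with both, the highest level of the 54 genes in the strain library. Its strain library was 1.43-fold higher (1.34 to 1.53) and its conditioned-medium library 1.18-fold lower (1.09 to 1.28) than the control. Tpx2, the activator of Aurora A on spindles, had 31.5 RPKM in the control, 40.8 with strain, 24.1 in conditioned medium and 24.6 with both. Nusap1 had 10.9 RPKM in the control, 15.6 with strain, 7.69 in conditioned medium and 7.76 with both, and Dlgap5 (HURP) had 13.1 RPKM in the control, 18.1 with strain, 8.48 in conditioned medium and 8.73 with both. Both were called lower with both treatments than with strain, Nusap1 2.01-fold lower (1.72 to 2.35) and Dlgap5 2.08-fold lower (1.79 to 2.41), as were the other 3 of the 5, among them Hmmr, 1.76-fold lower (1.57 to 1.97).

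Cytokinesis genes lay close together for strain against control, with log2 ratios of 0.30 to 0.39. All 6 were called lower with both treatments than with strain. In conditioned medium against control they were spread wider, from -0.93 (Kif23) to -0.45 (Ect2), with 4 of 6 called. Racgap1 (a subunit of centralspindlin) had 31.8 RPKM in the control, 41.7 with strain, 22.9 in conditioned medium and 24.7 with both. Prc1, which bundles microtubules of the central spindle, had 30.1 RPKM in the control, 38.1 with strain, 17.3 in conditioned medium and 18.2 with both. Kif20a (MKLP2) had 26.6 RPKM in the control, 34.3 with strain, 16.3 in conditioned medium and 17.1 with both, and the other centralspindlin subunit gene Kif23 had 8.25 RPKM in the control, 10.2 with strain, 4.34 in conditioned medium and 4.82 with both. With both treatments Prc1 was 2.09-fold lower (1.90 to 2.30), Kif20a 2.01-fold lower (1.83 to 2.20) and Kif23 2.11-fold lower (1.75 to 2.54) than with strain. The RhoA activator gene Ect2 was 1.69-fold lower (1.49 to 1.93) and the scaffold gene Anln 1.81-fold lower (1.68 to 1.95).

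**Figure D3:**
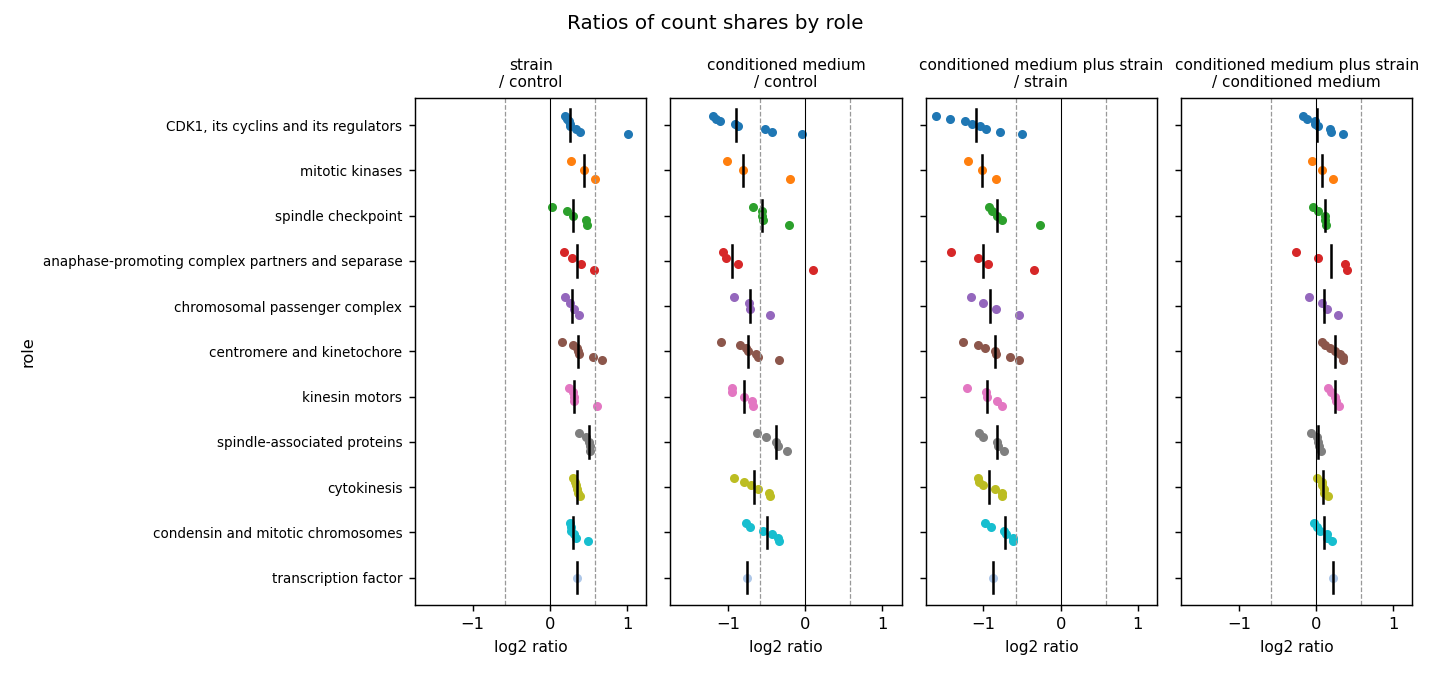
Log2 ratios of count shares by role in 4 comparisons, with 1 point per gene, black bars at each role's median and dashed lines at the 1.5-fold limits. Points lie right of 0 for strain against control, and those for both treatments against conditioned medium all lie within the dashed lines.

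Top2a (topoisomerase II alpha, which disentangles chromosomes) had 52.5 RPKM in the control, 65.4 with strain, 32.0 in conditioned medium and 33.1 with both, and its share was 1.64-fold lower (1.55 to 1.74) in conditioned medium than in the control. Smc4, a core subunit of condensin, had 49.7 RPKM in the control, 60.1 with strain, 38.9 in conditioned medium and 39.3 with both, a narrower spread, and was 1.28-fold lower (1.20 to 1.36). Mki67 (Ki-67, a coat protein of mitotic chromosomes that is widely used as a proliferation marker) had the most counts, 5042, 5942, 2859 and 2964 counts in the order used for levels, and was 1.87-fold lower (1.79 to 1.956) with both treatments than with strain. The condensin genes Smc2, Ncapd2 and Ncaph were 1.54-fold to 1.67-fold lower there. Foxm1, a transcription factor that activates many genes of G2 and mitosis, had 16.5 RPKM in the control, 21.0 with strain, 9.78 in conditioned medium and 11.4 with both. It was 1.69-fold lower (1.504 to 1.90) in conditioned medium than in the control and 1.84-fold lower (1.65 to 2.05) with both than with strain.

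Strain was set beside its own effect in the other medium. The log2 strain ratio in conditioned medium was below that in ordinary medium for 51 of 54 genes, where 51.3% of the genes assessed were below, and the median difference was -0.24 against -0.01 over all. For the summed share of the 54 genes the difference was -0.24 (-0.27 to -0.21, a normal approximation on the log scale that covers counting error only). By more than 1.5-fold only Cdc25c (-1.19) and Aurka (-0.64) differed, against 2.95% of the genes assessed. For 24 genes the counting interval lay below 0, against 9.59% of the genes assessed, and for 0 above it, against 8.43%. The differences nearest 0 were those of Kif22 (0.0053), Cdc20 (-0.0073), Ndc80 (-0.01), Cenpf (0.02), Kif11 (-0.02) and Ccnb1 (-0.04), and the highest was that of Espl1 (0.09). With 1 library per group this difference was not tested, and it rests on the same libraries as the comparisons above.

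**Figure D4:**
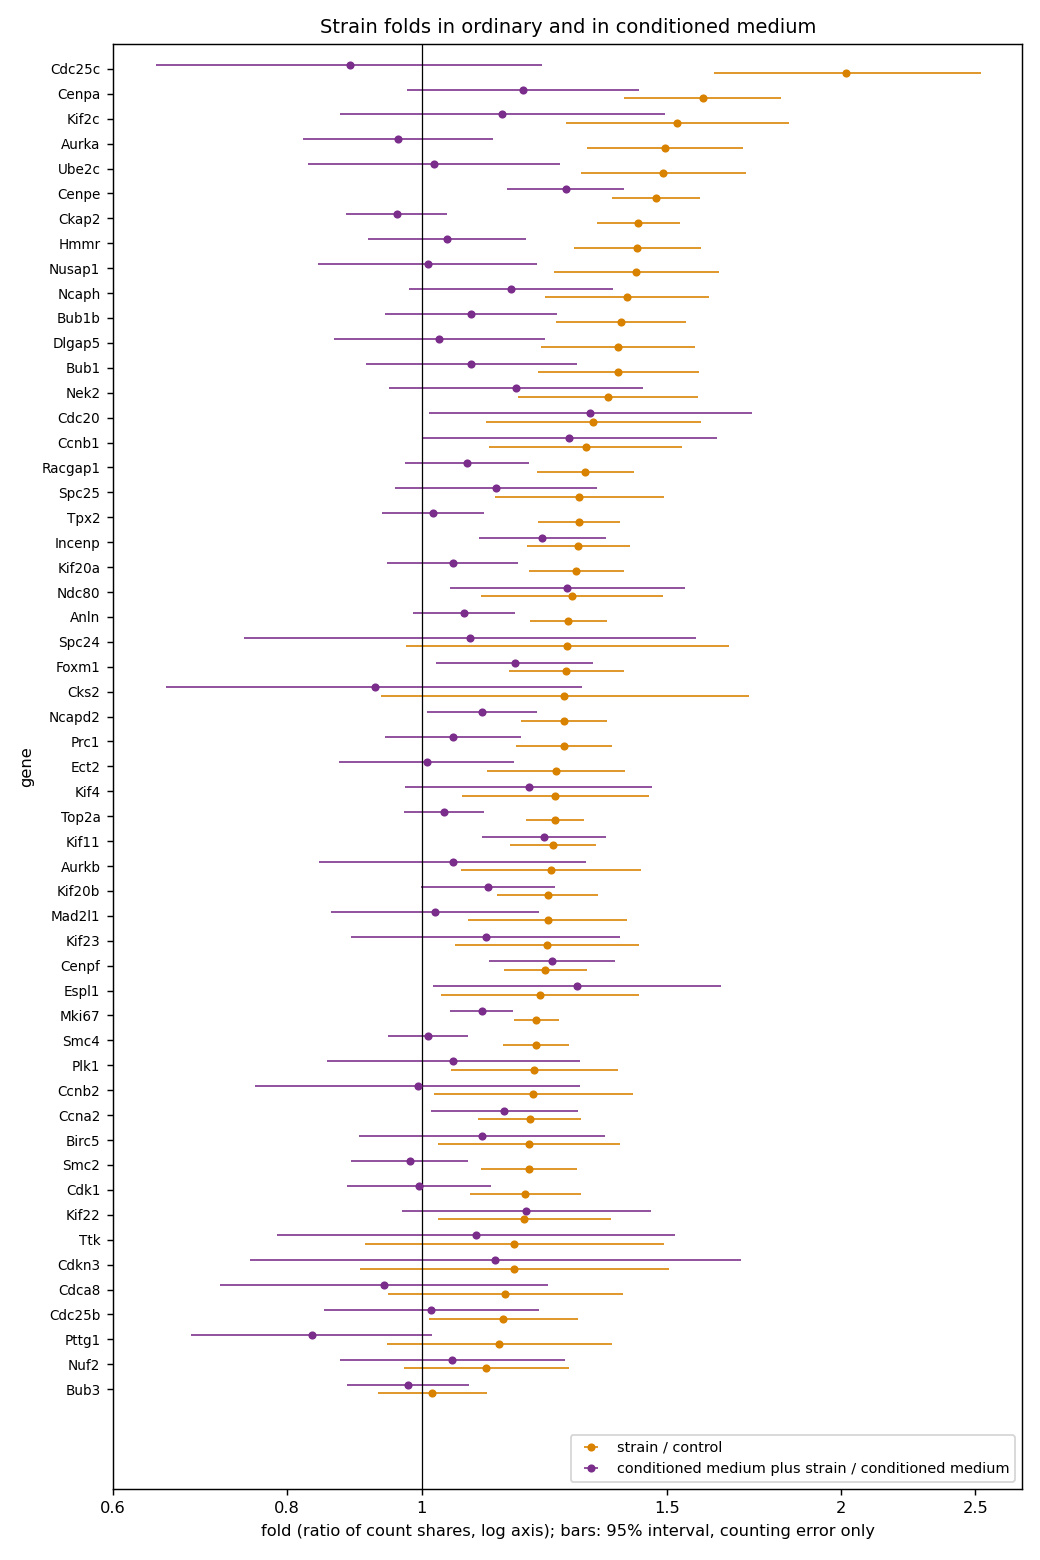
Fold of strain against control (orange) and of both treatments against conditioned medium alone (purple) for each gene, with 95% intervals for counting error, on a log axis and sorted by the first. Orange points run from 1.02 for Bub3 to 2.02 for Cdc25c, and purple points from 0.834 for Pttg1 to 1.32 for Cdc20.

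Related gene lists gave context. Of 59 other mitotic genes, 58 were assessed. With both treatments, 57 of these were lower than with strain (median log2 ratio -0.72), where 58.6% of the genes assessed were. Of the 58, 35 were called lower, against 3.85% of the genes assessed, and 0 higher, against 2.55%. Against control, 57 of the 58 were higher with strain (median 0.28), where 43.0% of the genes assessed were. In conditioned medium 56 were lower than in the control (median -0.46), where 57.3% of the genes assessed were. Knstrn, a spindle and kinetochore protein gene, was 2.38-fold lower (2.04 to 2.78) and Cdca3 2.12-fold lower (1.82 to 2.47) with both treatments than with strain. At the other end stood Zwint, a kinetochore gene with 31.5 RPKM in the control, 36.9 with strain, 37.7 in conditioned medium and 37.7 with both, and Cenph, 1.05-fold lower (0.755 to 1.46). Zwint and Oip5 were the 2 of these 58 with higher values in conditioned medium than in the control, Zwint 1.20-fold higher (1.11 to 1.29) and Oip5 1.11-fold higher (0.784 to 1.57).

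Genes of DNA replication and G1/S had ratios nearer to 0. With strain, 36 of 38 were higher than in the control (median log2 ratio 0.19), where 43.0% of the genes assessed were. With both treatments, 37 of 38 were lower than with strain (median -0.36), where 58.6% of the genes assessed were. In this comparison 8 were called lower, against 3.85% of the genes assessed. Cdc6, which loads the replicative helicase, was 1.998-fold lower (1.47 to 2.73) and the clamp loader gene Rfc5 1.71-fold lower (1.37 to 2.16), while Gins4 was 1.02-fold higher (0.829 to 1.27) and Orc6 1.02-fold lower (0.867 to 1.20). The 16 genes of the anaphase-promoting complex and its close partners had a median of -0.10 there, with 1 called lower, against 3.85% of the genes assessed. That was Ube2s, the chain-extending enzyme, 1.85-fold lower (1.404 to 2.47); Cdc23 was 1.497-fold lower (1.39 to 1.61), Anapc7 1.05-fold higher (0.921 to 1.19) and Anapc16 1.03-fold higher (0.896 to 1.18). The 10 cohesin genes had a median of -0.17 and 0 called, from Rad21, 1.31-fold lower (1.24 to 1.39), and Smc1a, 1.28-fold lower (1.17 to 1.402), to Nipbl, 1.03-fold lower (0.965 to 1.11), and Mau2, 1.03-fold lower (0.923 to 1.15).

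Among 18 transcriptional regulators of cell cycle genes the median was -0.12 and 3 were called lower, against 3.85% of the genes assessed. Mybl2 (B-Myb), which works with MuvB in late S phase and G2, had 2.40 RPKM in the control, 2.98 with strain, 1.64 in conditioned medium and 1.67 with both, and the pocket protein gene Rbl1 (p107) was 1.66-fold lower (1.45 to 1.90) with both treatments than with strain. Rbl2 (p130), the pocket protein of resting cells, was 1.07-fold higher (0.962 to 1.19) and E2f5 1.14-fold higher (0.884 to 1.48). Of 7 CDK inhibitor genes 4 were assessed, with a median of -0.17 and 0 called. Cdkn1a (p21) had 213 RPKM in the control, 246 with strain, 208 in conditioned medium and 210 with both, Cdkn1b (p27) was 1.08-fold lower (1.02 to 1.15), Cdkn2c 1.28-fold lower (1.15 to 1.44) and Cdkn2d 1.08-fold lower (0.930 to 1.26).

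**Figure D5:**
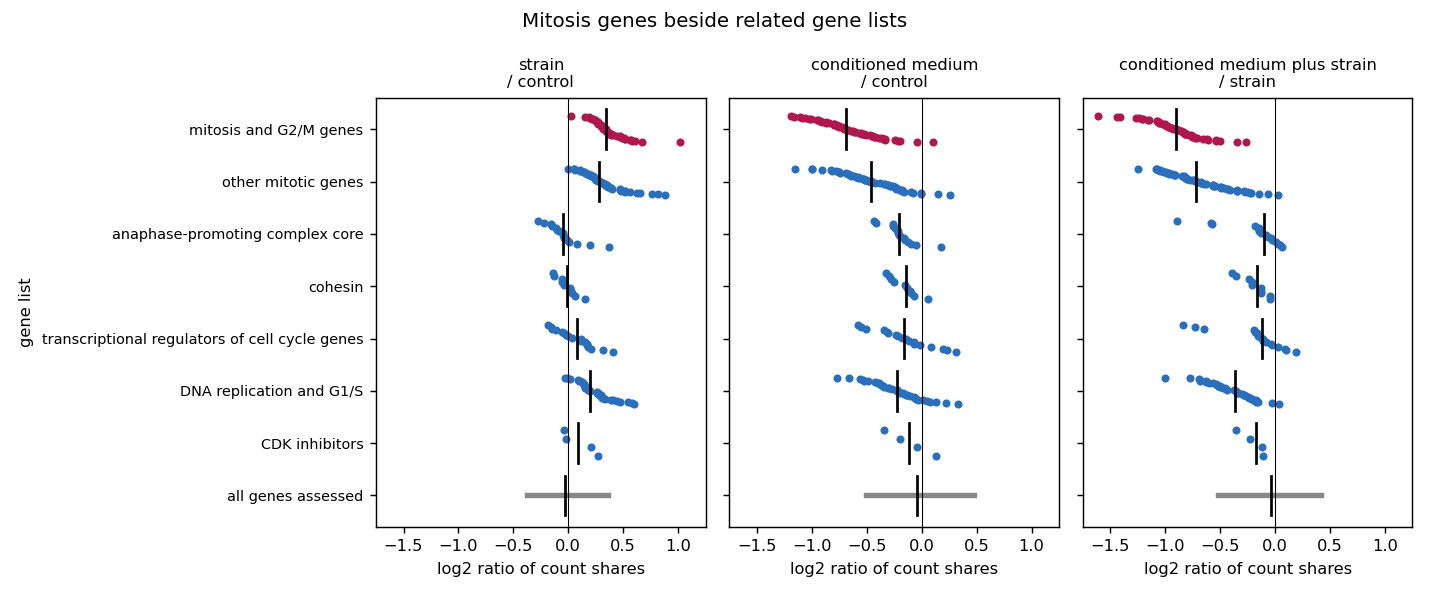
Log2 ratios of count shares in 3 comparisons for the 54 genes (red) and 6 related lists (blue), 1 point per gene, with black bars at medians and a grey bar from the 5th to the 95th percentile of all genes assessed. The red medians, 0.34, -0.69 and -0.90, lie farthest from 0 in each panel.

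Some counts have limits of their own. The libraries were made with a directional kit, but whether counting used strand is not given in the sources used here. Of the 54 genes, 6 overlap a gene on the opposite strand that had at least 10% as many counts: Ccna2 (Exosc9), Aurka (Cstf1), Cdc20 (Elovl1), Nusap1 (Oip5), Kif20a (Brd8 and Cdc23) and Prc1 (Rccd1). The values of these 6 genes are uncertain to that extent. The same holds for Cdc23 and Oip5, whose values are given above among the related lists. Elovl1 had 392, 330, 334 and 285 counts in the order used for levels, and Cstf1 had 618, 499, 531 and 485. In the table's positions, read as GRCm38, Cdk1 lies on chromosome 10 at 69336635 to 69352912, Ccnb2 on chromosome 9 at 70407689 to 70421554, Ube2c on chromosome 2 at 164769929 to 164772902, Cdc20 on chromosome 4 at 118432901 to 118437343, Top2a on chromosome 11 at 98992947 to 99024205, Bub3 on chromosome 7 at 131560370 to 131571895 and Cdc25c on chromosome 18 at 34732993 to 34752130. The RefSeq start of Top2a used for its promoter lies 16 bases inside the gene as the table gives it.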

How the data were processed

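Per the file headers, the deposited table lists counts and RPKM of 41288 genes in 4 libraries. The submitters' processing notes name HISAT2 and the build mm9. However, of 40033 genes matched by Entrez number 71.8% had the chromosome and start of the GRCm38.p6 RefSeq table, so positions were taken as GRCm38. Which tool counted the reads, whether it used strand, and from which annotation, is not given in the sources used here. The RPKM values that the authors deposited differed from count divided by gene length and library total by a relative 5.05e-06 at most.

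Shares were computed from the deposited counts and the library totals, over genes with a mean of at least 30 counts over all 4 libraries. With 1 library per group no model was fitted. The code for ratios and intervals was tested on simulated data with known folds. Those counts held counting error only, which the intervals also assume, so the check does not cover variation between cultures. Alternatives were TMM scaling (edgeR 4.0.16) and median-of-ratios scaling (DESeq2 1.42.0), no filter on low counts, count minimums of 10 and 100, protein-coding genes only, log2(RPKM + 1), log2(RPKM + 0.1), a 2-fold limit and a promoter window of 100 bases. Python 3.11.15, numpy 2.4.6, scipy 1.17.1 and R 4.3.3 were used.

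Named with values in all libraries were the 2 genes of highest mean RPKM in each role, each gene at least 2-fold apart in any comparison and the 3 with the narrowest spread; further members and partners on the opposite strand were named after their values were seen. From each related list the 2 highest and 2 lowest ratios of both treatments against strain were named. The members, lists and limits were chosen with earlier results of these data known. Intervals cover counting error only, and PCR copies of one molecule are not independent reads.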

Additional observations from a re-analysis of the deposited data

Results flagged for a closer look

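For 10 genes the strain ratio had opposite signs in the 2 media, as measured: it was above 0 (log2) in ordinary medium and below 0 in conditioned medium. The values in conditioned medium were -0.26 for Pttg1, -0.17 for Cdc25c, -0.11 for Cks2, -0.0896 for Cdca8, -0.0603 for Ckap2, -0.0567 for Aurka, -0.0334 for Bub3, -0.0289 for Smc2, -0.0103 for Ccnb2 and -0.0066 for Cdk1. In each case the counting interval of the fold in conditioned medium holds 1. For Cks2, Bub3, Pttg1 and Cdca8 the interval in ordinary medium holds 1 as well, so that neither ratio of these 4 genes can be told from no difference by counting error. The sign of the conditioned-medium ratio differed for 1 gene, Pttg1, at 0.10 without strain, where the interval holds 1, and -0.35 with it. These differences were not tested, since each rests on 1 library per group.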

How the results depend on the processing

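No paired analysis was possible because each group is 1 library. For the same reason no replicate could be left out. Scaling moved the median of all genes by less than 0.1 (log2), and the directions of the 54 genes under TMM and median-of-ratios scaling were as reported in each comparison except both treatments against conditioned medium, where 46 and 48 of 54 were higher in place of 44. For strain against control, TMM and median-of-ratios scaling gave 6 called genes each in place of 3, medians of 0.39 and 0.38 and summed folds of 1.31 and 1.30. For both treatments against control they gave 16 called genes each in place of 25, and summed ratios of 0.736 and 0.737. Summed ratios under the same scalings were 0.671 and 0.669 for conditioned medium against control, 0.561 and 0.565 for both against strain, and 1.10 in either case for both against conditioned medium. At 2-fold, called genes numbered 1 for strain against control, 7 for conditioned medium against control, 19 for both against strain and 2 for both against control. On the log2(RPKM + 1) scale the median of both against strain was -0.82. The share of all genes called depends on the count minimum: it was 1.56% to 7.08% over the 5 comparisons, 35.5% to 39.0% with no filter on low counts and 0.374% to 5.05% with a minimum of 100, while with the latter, which 51 of the 54 genes met, 3, 31, 47, 0 and 23 were called, in the order of the report. With a promoter window of 100 bases 21.3% of the promoters held a CHR, against 3.74% of promoters of genes assessed and 6.13% of all, and 70.2% held CCAAT, against 22.4% and 18.9%. Values of single named genes changed sign under none of these scalings and scales where they were called, and 10 of 185 crossed the 1.5-fold limit with TMM scaling. Depth limits Cks2, Spc24 and Cdkn3, whose mean counts were 80.75, 88.5 and 88.75.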
